A study of Mus musculus with 2 samples.

Results

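Bile acids are detergents that the liver makes from cholesterol, and most of them are taken back from the gut lumen and returned to the liver through the portal blood. In the mouse this recovery is known chiefly from the ileum, the last segment of the small intestine, where an uptake carrier at the brush border, a binding protein in the cytosol and an exporter at the basolateral side act in series. A nuclear receptor that binds bile acids switches on genes of this chain and a hormone that tells the liver to make less bile acid. The 7 genes described here cover these steps, namely Slc10a2 (uptake), Fabp6 (binding), Slc51a and Slc51b (export), and Nr1h4, Nr0b2 and Fgf15 (sensing and feedback). They were chosen by gene symbol, as all probe sets whose platform annotation gives exactly one of these names. Each gene had 1 probe set, a group of short oligonucleotides on the array that reports 1 transcript, so the 7 genes are 7 of 34958 probe sets with a single gene name and 7 of 18194 named genes.

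The series held 2 Affymetrix Mouse Genome 430 2.0 arrays, 1 of small intestine tissue and 1 of colon tissue, both biopsies of wild-type adult mice with no treatment given. The methods of the study name jejunum and distal colon of C57B6 mice, but they point to a different deposited series for the arrays, so these details may not hold here. The sources used here do not say how many animals gave RNA to each array. The values are log2 expression values, and a difference is the small intestine minus the colon. Nothing was replicated, so no test was possible and every fold is a comparison of 2 arrays. A log2 level of 5 was taken as background. None of the 80 named olfactory and vomeronasal receptor probe sets, which an intestine should not express, exceeded 4.78. Values below 5 were raised to 5 before a difference was taken. This can only shrink a difference, so each count below of genes shifted further than a given gene is a minimum. The call of a gene as higher in one tissue required 3-fold.

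The small intestine array had a median of 3.99 and the colon array one of 4.01, and 10418 genes lay above background on the small intestine array and 10412 on the colon array. The label of each tissue was borne out by its markers. Of 6 genes typical of proximal small intestine 5 passed 3-fold on the small intestine array, led by the alcohol dehydrogenase Adh6a (at least 368-fold) and lactase (Lct, at least 324-fold). Of 6 genes typical of distal small intestine 3 did so, while Mep1a and Tmigd1 differed by -0.83 and -0.08. All 5 colon genes passed 3-fold on the colon array, among them Hoxb13 with 3.71 in the small intestine, against 11.17 in the colon. Slc26a3 passed narrowly (3.12-fold), and its 4 probe sets ran from -2.97 to -0.43. Of 8 epithelial genes only villin (Vil1, 3.02-fold) passed 3-fold, and their levels lay between 11.90 and 14.73 in the small intestine and between 12.51 and 14.95 in the colon. In bulk tissue, fewer cells of a type and less RNA per cell cannot be told apart.

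Of the 7 genes, Fabp6 and Slc51a, 2 in all, were called higher in the small intestine, and Nr1h4 was the 1 called higher in the colon. Slc51b and Slc10a2 were above background in both tissues and differed by less than 3-fold, and Nr0b2 and Fgf15 were below background on both arrays. Among all named genes 3.46% were called on the small intestine side and 3.33% on the colon side, and of the 11016 genes above background in at least 1 tissue 5.71% were called towards the small intestine and 5.49% towards the colon. With 5 genes above background, the counts of 2 and 1 are too small to be read as more than a description. The median difference of the 7 genes was 0, but this is the value of Nr0b2 and Fgf15, which the floor sets to 0. It therefore does not describe a lean of the set. Without a floor Nr0b2 differed by 0.64 and Fgf15 by 2.14. The median over all named genes was also 0, with 7178 of them at or below background on both arrays.

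**Figure D1:**
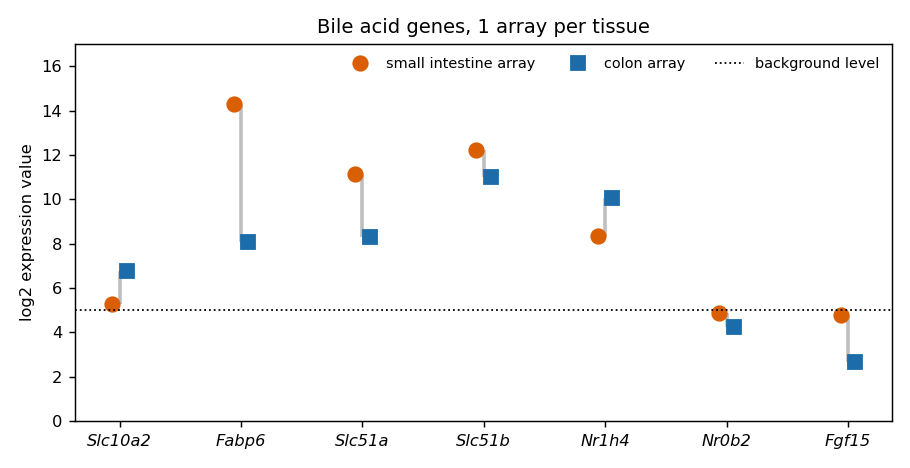
Log2 expression value (vertical axis) of the 7 bile acid genes on the small intestine array (orange circles) and the colon array (blue squares), and a dotted line at the background of 5; heights of different genes are not comparable. Fabp6 has the widest gap, 14.31 in the small intestine against 8.05 in the colon, and both points of Nr0b2 and of Fgf15 lie under the line.

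Slc10a2, the sodium-dependent carrier that takes bile acids up across the brush border (probe set 1450245_at), was dim in both tissues. Its level was 5.29 in the small intestine, against 6.77 in the colon, a difference of -1.48. This is 2.78-fold higher in the colon and short of the 3-fold rule, and the small intestine value stood just above background. With a background of 6 the difference was -0.77, so its size depends on where background is set. Of all 18194 genes, 694 (3.81%) were shifted further to the colon, and the nearest in order were Insr and Cfap20.

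Fabp6, the cytosolic binding protein that carries bile acids through the enterocyte (1450682_at), had 14.31 in the small intestine, against 8.05 in the colon. The difference of 6.26 is 76.8-fold, and by floored differences 39 of 18194 genes (0.214%) were shifted further to the small intestine. The floor holds back genes that are dim in the colon, so more could lie further without it. The colon value was itself well above background, so this fold is not a lower bound. In the order of differences its nearest genes were Ms4a10 on one side (at least 6.30) and the retinol binding protein Rbp2 on the other, with 12.86 in the small intestine, against 6.64 in the colon. Likeness here is the difference alone, over 2 arrays.

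Slc51a and Slc51b encode the alpha and beta subunits of the organic solute transporter, which works only as a pair and passes bile acids out of the enterocyte towards the blood. Slc51a (1451481_s_at) had 11.14 in the small intestine, against 8.31 in the colon, which is 7.15-fold higher in the small intestine (difference 2.84). Slc51b (1454854_at) had 12.20 in the small intestine, against 11.00 in the colon, which is 2.29-fold (difference 1.19) and short of 3-fold. Both subunits were thus above background in both tissues and higher in the small intestine, but the difference of Slc51a exceeded that of Slc51b by 1.64. With 1 array per tissue, whether the subunits differ in this was not tested. Of all genes, 211 (1.16%) were shifted further to the small intestine than Slc51a and 1005 (5.52%) further than Slc51b. Their nearest genes in order were Pcyt1a (2.85) and Bbox1 (at least 2.83) for Slc51a, and Lin9 (1.19) and the receptor Nr1h3 (at least 1.19) for Slc51b. The ending _s_at marks a probe set whose oligonucleotides may match more than 1 transcript, and Slc51a had no other on this array. Its level therefore has no second reading.

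The promoters of these 3 genes of binding and export, each taken as the 250 bases before and 50 bases after the annotated start of the gene, are shown because the genes lay on the same side and are known targets of Nr1h4, which binds, with its partner Rxra, to inverted repeats of a hexamer with 1 base between the repeats. The pattern searched, GGTNANTNACC, is the core of such a repeat, reads the same on both strands, and was written with the member promoters in view. It occurs in 86 of 32851 mouse promoter windows of this length (0.262%). A match is a likeness of letters and not a measured binding site. Fabp6 held 2 matches, from 221 to 211 and from 141 to 131 bases before the start, and Slc51b held 1, from 186 to 176 bases before the start. Slc51a had none in this window, nor did Slc10a2 or Nr0b2, nor the window listed for Nr1h4, which lies at a start inside that gene. The exact string CAAGGTCA, a form of the site of Nr5a2, was found in none of the 6 promoters on either strand and in 1.56% of all windows. Forms that differ from this string were not searched, so its absence does not show that a promoter lacks such a site. The windows are Fabp6 (chr11:43601513-43601812, strand minus), Slc51b (chr9:65422724-65423023, strand minus) and Slc51a (chr16:32487830-32488129, strand minus), from RefSeq on GRCm38.p6 and 5′ to 3′ along the gene, with matches to GGTNANTNACC in capitals.
Fabp6: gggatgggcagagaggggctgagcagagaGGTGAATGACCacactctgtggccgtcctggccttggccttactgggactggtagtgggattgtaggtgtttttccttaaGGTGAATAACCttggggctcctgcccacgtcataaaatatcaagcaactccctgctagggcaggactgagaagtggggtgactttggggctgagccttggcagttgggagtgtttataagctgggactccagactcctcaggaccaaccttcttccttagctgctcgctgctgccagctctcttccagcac
Slc51b: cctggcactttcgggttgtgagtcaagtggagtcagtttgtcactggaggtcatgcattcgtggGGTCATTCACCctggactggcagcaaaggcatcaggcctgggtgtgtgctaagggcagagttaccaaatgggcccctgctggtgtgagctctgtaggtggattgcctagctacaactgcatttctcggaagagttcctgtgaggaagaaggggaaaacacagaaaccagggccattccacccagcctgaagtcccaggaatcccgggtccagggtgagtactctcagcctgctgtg
Slc51a: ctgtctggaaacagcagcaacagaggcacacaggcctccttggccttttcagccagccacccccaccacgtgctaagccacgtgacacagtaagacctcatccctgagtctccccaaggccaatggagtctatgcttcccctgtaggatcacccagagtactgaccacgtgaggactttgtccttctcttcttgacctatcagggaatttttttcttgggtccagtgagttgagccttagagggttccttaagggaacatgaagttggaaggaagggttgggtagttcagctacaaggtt

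**Figure D2:**
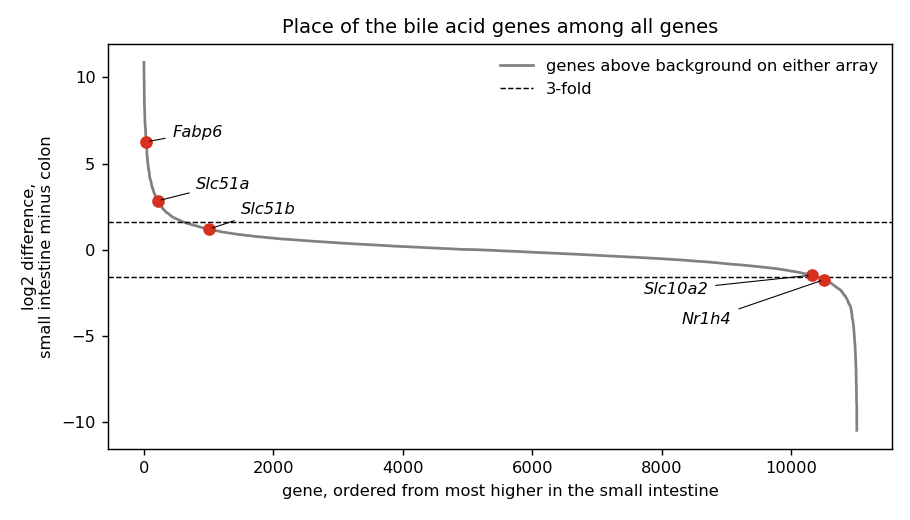
All 11016 genes above background on either array, ordered along the horizontal axis from those most higher in the small intestine to those most higher in the colon, with the log2 difference (small intestine minus colon) on the vertical axis and 3-fold as dashed lines. Fabp6 (6.26) and Slc51a (2.84) lie above the upper line, Slc51b (1.19) and Slc10a2 (-1.48) between the lines and Nr1h4 (-1.73) below the lower one.

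Nr1h4, the farnesoid X receptor that senses bile acids (1419105_at), was higher in the colon than in the small intestine. It had 8.35 in the small intestine, against 10.07 in the colon, a difference of -1.73 or 3.32-fold. Of all genes, 500 (2.75%) were shifted further to the colon, and the nearest in order were Cadps2 and the cytochrome P450 Cyp2c65. The call is close to the 3-fold line, and it was lost (-1.48) when the arrays were centred on hybridization spike-in controls, whose mean difference was -0.25 and median 0.02 over 18 probe sets. The receptor and the genes of binding and export known to be under its control thus lay on opposite sides. Its partner Rxra had 8.98 in the small intestine, against 7.80 in the colon (2.28-fold higher in the small intestine). The 3 probe sets of Rxra ran from 0 to 1.19 with the floor.

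Nr0b2, the small heterodimer partner, is a repressor induced by Nr1h4. Its level was 4.88 in the small intestine, against 4.24 in the colon (1449854_at), below background on both arrays. Fgf15, the hormone that enterocytes release in answer to bile acids, had 4.79 in the small intestine, against 2.66 in the colon (1418376_at), also below background on both. No fold is given for either gene. Without a floor the difference of Fgf15 was 2.14 and that of Nr0b2 0.64. The small intestine values of both lay just above the highest receptor probe set (4.78). With a background of 4 they were above background, with differences of 0.79 for Fgf15 and 0.64 for Nr0b2, so whether they count as detected in the small intestine depends on where background is set.

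**Figure D3:**
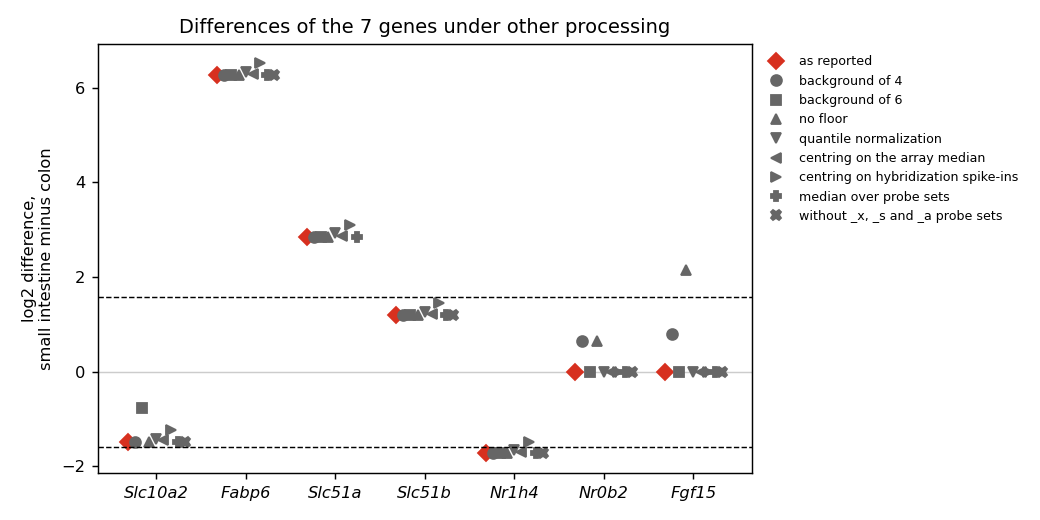
Log2 difference, small intestine minus colon (vertical axis), of each of the 7 genes as reported (red diamonds) and under up to 8 other ways of processing the values (grey symbols), with 3-fold as dashed lines. Slc51a has 7, with no value where _x, _s and _a probe sets are left out. Fabp6, Slc51a and Slc51b hardly move, Nr1h4 crosses the line to -1.48 with spike-in centring, and Fgf15 leaves 0 only where the floor is lowered or dropped.

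Other tissues and cell types in the biopsies moved with the comparison. All 7 measured genes of the exocrine pancreas passed 3-fold on the colon side, with levels of 2.77 to 4.56 in the small intestine and 9.76 to 13.95 in the colon, and summed levels (log2 of the sum over the list) of 6.45 in the small intestine, against 15.65 in the colon. For smooth muscle, 5 of 7 genes passed 3-fold towards the colon, with summed levels of 13.01 in the small intestine, against 14.44 in the colon. Both stand beside the higher colon values of Nr1h4 and Slc10a2, and their part in these values was not tested. Of 6 immune genes 4 passed 3-fold towards the small intestine, with summed levels of 12.26 in the small intestine, against 9.90 in the colon. Bile acid genes are also active in liver, and of 7 measured hepatocyte genes albumin (Alb), Ahsg, Fgb and Hpx were below background on both arrays. Of the other 3, Cps1, which enterocytes express too, was 114-fold higher in the small intestine, and Ttr 15.1-fold higher in the colon.

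Around these 7 genes, 63 other genes linked to bile acids were measured, in 8 lists. Of these, 8 passed 3-fold towards the small intestine and 3 towards the colon, 52 did not reach 3-fold, and the median difference was 0. Of the 63, 14 were at or below background on both arrays, and the floor set their differences to 0. These lists were chosen for their link to bile acids with earlier results known, so their counts, set against 3.46% and 3.33% of all named genes, are a description.

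The list put together as detoxification stood furthest to the small intestine, with all 4 measured genes past 3-fold and a median of 5.45. Of its 5 genes, Ugt1a1 was not measured. How far each gene acts on bile acids in these tissues was not tested. Cyp3a11, a cytochrome P450 that hydroxylates bile acids and drugs, had 13.55 in the small intestine, against 6.43 in the colon (138-fold). Cyp2b10, another P450, had 11.44 in the small intestine, against 2.99 in the colon (at least 86.6-fold). The sulfotransferase Sult2b1 was 22.0-fold and Cyp3a13 4.81-fold higher in the small intestine. Nr1i3, the receptor CAR that is known to induce Cyp2b10, had 7.77 in the small intestine, against 3.63 in the colon (at least 6.81-fold, from a single _a_at probe set), and the related receptor Nr1i2 was 2.20-fold higher in the small intestine, short of the rule.

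Of 13 other transporters of bile acids and organic anions, Abcc2, an export pump of the apical membrane, had 9.12 in the small intestine, against 3.65 in the colon (at least 17.4-fold), from a single _s_at probe set. Abcb1a, an apical drug pump, had 11.01 in the small intestine, against 13.18 in the colon, and was 4.52-fold higher in the colon. The basolateral pumps Abcc3 (-1.45) and Abcc4 (-1.0) leaned to the colon without reaching 3-fold. Slc10a1 and Abcb11, the uptake carrier and the export pump of hepatocytes, were below background on both arrays and are named after their values were seen. Besides Slc10a1, 3 further Slc10 relatives of Slc10a2 were measured and none reached 3-fold, with Slc10a7 at -0.94 and Slc10a3 at -0.59.

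No gene of synthesis and conjugation reached 3-fold with values floored at 5. With a background of 4 Cyp7b1 passed it, and without a floor Cyp7b1 (2.37) and Baat (1.60) did, both towards the small intestine. Of these 12 genes, 5 were below background on both arrays. They included Cyp7a1, the rate-limiting enzyme of bile acid synthesis and the liver target of Fgf15 signalling, and Cyp8b1, the sterol hydroxylase that sets the share of cholic acid, both named after their values were seen. With the floor the widest differences were those of the peroxisomal oxidase Acox2 (2.70-fold) and Cyp7b1 (at least 1.99-fold), both towards the small intestine. The 3 probe sets of Cyp7b1 ran from 0 to 0.99 with the floor.

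Among the receptors of fibroblast growth factors and their co-receptor, Fgfr2 had 7.76 in the small intestine, against 10.11 in the colon (5.07-fold higher in the colon), from an _s_at probe set. Another probe set of Fgfr2 differed by 0 with the floor, which values at or below background on both arrays would also give. Klb, the co-receptor that Fgf15 needs, was below background in the small intestine (2.32) and had 6.22 in the colon (at least 2.32-fold), and Fgfr3 differed by -0.75. Klb passed 3-fold towards the colon with a background of 4 and without a floor (-3.90). The 2 probe sets of Klb ran from -1.22 to 0 with the floor. Fgfr4, the receptor of Fgf15 in the liver, was below background on both arrays and is named after its values were seen.

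Of 12 transcription factors known to act on these transporter genes, 2 passed 3-fold towards the small intestine and none towards the colon. Hnf4g had 8.74 in the small intestine, against 4.82 in the colon (at least 13.4-fold), with its other probe sets down to a difference of 0.72. Gata5 had 8.16 in the small intestine, against 3.39 in the colon (at least 8.94-fold). Gata4, which in the mouse marks the proximal gut and is known to hold Slc10a2 down there, was above background in the small intestine only, with 6.15 in the small intestine, against 3.23 in the colon (at least 2.22-fold). It passed 3-fold with a background of 4 and without a floor (2.92). The 2 probe sets of Gata4 ran from 0 to 1.15 with the floor. Gata6 differed by 0.89, with its 3 probe sets running from -0.24 to 0.89. Hnf4a, named after its values were seen, differed by -0.11, while its 4 probe sets ran from -0.72 to 1.85. With _x, _s and _a probe sets left out, Hnf4a passed 3-fold towards the small intestine, so its call depends on the probe set used.

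Of 6 further genes reported to be induced through Nr1h4 in mice, the carbonic anhydrase Car12 was 5.83-fold higher in the colon, with 5.63 in the small intestine, against 8.17 in the colon. Another of its probe sets differed by 0 with the floor, which values at or below background on both arrays would also give. Osgin1 was 2.67-fold higher in the small intestine, short of the rule, and Il18 differed by -0.50. The median of the list was -0.24, with members on both sides of 0.

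**Figure D4:**
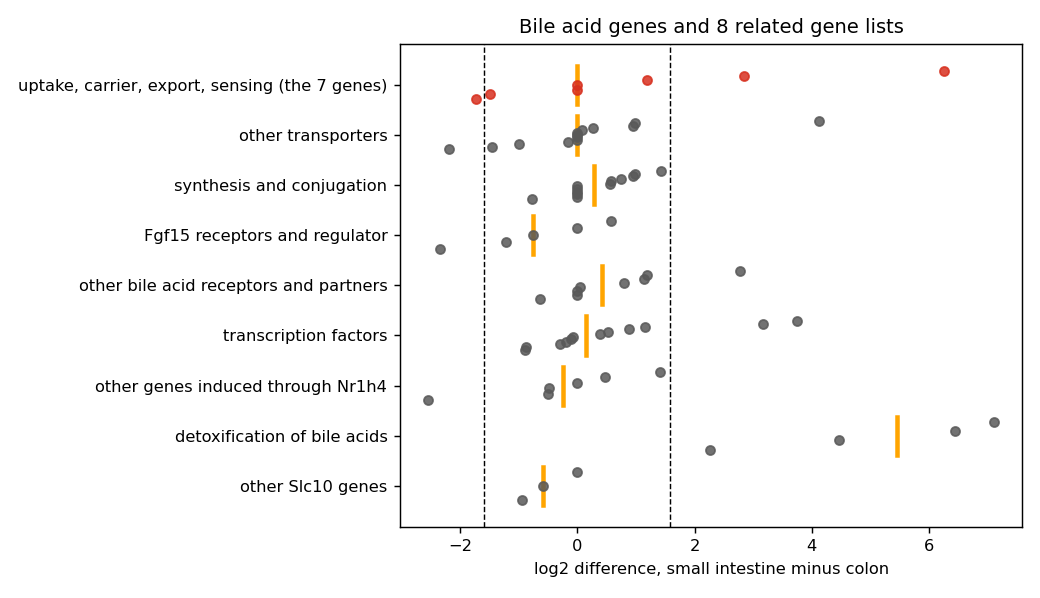
Each point is 1 gene, placed by its small intestine minus colon difference in log2 units, with values below background raised to 5, for the 7 bile acid genes (red, top row) and 8 lists of related genes (grey). Orange bars are medians and dashed lines mark 3-fold; the detoxification genes have a median of 5.45, whereas the medians of the other lists lie between -0.75 and 0.43.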

How the data were processed

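Total RNA of both tissues was isolated with a Qiagen RNeasy kit, labelled with biotin and hybridised by the authors. The deposited values are log2 expression values per probe set. The submitters' processing notes name GCRMA, the methods of the study name RMA, and no version or set of co-normalized arrays is given in the sources used here. GCRMA pulls unexpressed probe sets to a low mode and can widen folds against a dim value. All 45101 probe sets were used as deposited.

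Probe sets were named from the platform annotation (34958 with 1 gene, and 932 with several genes, left out), and a gene with several was taken at the one with the highest mean of both arrays. Named genes were every one of the 7, every related gene past 3-fold and up to 2 further genes per list by size of difference. Members and lists were chosen with earlier results of these data known. Promoters are those of RefSeq (GRCm38.p6), which matched 6 of 7 genes. The fold rule was tested on simulated data, with changes past 3-fold planted only in genes bright on the colon array. That test therefore does not bear on genes near background. Alternatives changed the background, the floor, the fold, the scaling and the choice of probe set. Python 3.11.15, numpy 2.4.6, pandas 2.3.3 and matplotlib 3.10.9 were used.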

Additional observations from a re-analysis of the deposited data

How the results depend on the processing

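The differences of Fabp6 (6.26 to 6.51), Slc51a (2.84 to 3.09) and Slc51b (1.19 to 1.44) kept their direction and their side of 3-fold under every other background, floor, scaling and probe set rule that gave them a value. That of Nr1h4 ran from -1.73 to -1.48 and that of Slc10a2 from -1.48 to -0.77. Of the 7 genes, 3 were higher in the small intestine at 2-fold, which adds Slc51b. In the colon 2 were higher at 2-fold, which adds Slc10a2, and 0 at 5-fold or after centring on hybridization spike-ins. That centring also raised the share of all called genes that were higher in the small intestine to 65.2%, against 51.0%. Leaving out _x, _s and _a probe sets left 1 gene higher in the small intestine, because Slc51a had no other probe set. Among related genes it also ended the calls of Abcc2 and Nr1i3, which had no other probe set, and of Fgfr2. The same rule brought in a call of Hnf4a, towards the small intestine. Without a floor Fgf15 passed 3-fold too (2.14), from 2 values below background. Of the 63 related genes, 13 lay towards the small intestine and 6 towards the colon at 2-fold, and 1 was called towards the colon with the median over probe sets, which drops Fgfr2 and Car12. Of 40 recounts, 33 stayed within 1.5 times. No paired analysis was possible because each tissue had 1 array. What depth does for counts, signal over background does here, and it limits Nr0b2, Fgf15 and, in the small intestine, Slc10a2.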
